A study of Mus musculus with 24 samples.

Results

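Genes of the proteasome were examined in the brains of mice carrying aSYN and Hsp70, singly and together. The list held 41 mouse genes, taken by name: the alpha (Psma) and beta (Psmb) subunits of the core, the ATPases (Psmc) and other subunits (Psmd) of the regulatory particle, and the activators (Psme). A probe set counted for a gene where its annotation held that gene's symbol alone. By this rule 86 of the 45101 probe sets on the array belonged to 40 of the 41 genes, of 18193 genes named in the same way. Psme2, a subunit of the interferon-inducible activator, had only a probe set shared with Psme2b and was not analysed here. Of the 86 probe sets, 69 passed the filter on dim signals and all 40 genes kept at least 1. The brightest tested probe set stood for its gene, as for each of 12929 genes.

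The study measured total RNA of whole brains of mice aged 4 months on 24 Affymetrix arrays, in groups of 6. The groups were aSYN/Hsp70, aSYN alone, Hsp70 alone and wt. The labels give no strain, promoter or transgene construct, and aSYN is read here as alpha-synuclein. The labels do not tie the samples to separate mice, and a p-value here covers only the spread among these 24 samples, some of which may be technical. In whole-brain RNA, fewer cells of a type and less RNA per cell cannot be told apart. Values below are log2(intensity + 16) after quantile normalisation, differences are log2 differences, and a probe set's level is not set against another's. Adjusted p-values are limma's, with Benjamini-Hochberg adjustment over 27022 probe sets, and 0.05 was the threshold for a call.

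The proteasome degrades proteins that carry ubiquitin chains. Its core is a barrel of stacked alpha and beta rings, and the beta subunits Psmb5, Psmb6 and Psmb7 carry the cutting sites inside. Under interferon these are replaced by Psmb8, Psmb9 and Psmb10, which makes the immunoproteasome, known for cutting peptides for antigen presentation and in the brain best known from microglia. The regulatory particle caps the barrel: its Psmc ATPases unfold and thread the substrate, and its Psmd subunits bind and remove ubiquitin. Alpha-synuclein is the main protein of Lewy bodies, and Hsp70 is a chaperone that passes misfolded proteins for refolding or degradation.

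Proteasome genes are known to be driven together by Nfe2l1 (also called NRF1 or TCF11), which binds antioxidant response elements, while the immunoproteasome genes and Psme1 answer to interferon. The promoters of 4 genes are therefore printed, of a pair of constitutive catalytic genes and a pair of immunoproteasome genes whose values follow. They are RefSeq sequences of build GRCm38.p6, from 250 bases before to 50 bases after the start of the gene, in lower case with any motif match in capitals. Psmb5 lies on the minus strand at chr14:54617946-54618245, Psmb6 on the plus strand at chr11:70525107-70525406, Psmb8 on the plus strand at chr17:34197945-34198244 and Psmb9 on the minus strand at chr17:34187281-34187580.
Psmb5: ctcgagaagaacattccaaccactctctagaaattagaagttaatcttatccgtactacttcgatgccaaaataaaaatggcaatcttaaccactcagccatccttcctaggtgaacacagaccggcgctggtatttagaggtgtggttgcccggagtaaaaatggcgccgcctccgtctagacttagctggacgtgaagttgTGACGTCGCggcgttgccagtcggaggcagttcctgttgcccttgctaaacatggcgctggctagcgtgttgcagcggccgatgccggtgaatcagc
Psmb6: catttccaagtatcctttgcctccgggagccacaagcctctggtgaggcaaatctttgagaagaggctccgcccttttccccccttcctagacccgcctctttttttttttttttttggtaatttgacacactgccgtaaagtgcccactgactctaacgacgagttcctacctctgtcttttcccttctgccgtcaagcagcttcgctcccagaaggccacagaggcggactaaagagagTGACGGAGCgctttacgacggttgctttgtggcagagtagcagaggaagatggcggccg
Psmb8: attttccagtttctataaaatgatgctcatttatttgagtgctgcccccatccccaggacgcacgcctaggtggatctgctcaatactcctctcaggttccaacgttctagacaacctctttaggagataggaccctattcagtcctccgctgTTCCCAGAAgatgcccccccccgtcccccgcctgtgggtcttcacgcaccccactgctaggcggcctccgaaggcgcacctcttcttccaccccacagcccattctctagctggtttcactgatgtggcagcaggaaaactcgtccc
Psmb9: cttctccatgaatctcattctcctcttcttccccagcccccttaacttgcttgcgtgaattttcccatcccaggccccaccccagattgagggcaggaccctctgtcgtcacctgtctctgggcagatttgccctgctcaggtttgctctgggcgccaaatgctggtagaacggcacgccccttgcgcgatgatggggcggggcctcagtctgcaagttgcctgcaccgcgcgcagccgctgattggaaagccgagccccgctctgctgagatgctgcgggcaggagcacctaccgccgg

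Psmb5 and Psmb6 held the antioxidant response element core TGACNNNGC, at offsets of -47 and -9 from the start site. Psmb8 held the gamma-activated site core TTCNNNGAA at -97, and Psmb9 held none of the 3 motifs searched. The third motif was the interferon-stimulated response element core, a pair of GAAA words parted by 2 bases. Both strands were searched and a base could belong to more than 1 match. The gene table held promoters for 35 of the genes, 38 in all. The antioxidant core was in 6 of these 38 (Psmb5, Psmb6, Psmc6, Psmd12, Psmd9 and Psme4), against 12.39% of all 32851 promoters. The interferon-stimulated core was in 4 (Psmb3, Psmd4, Psmd9 and Psme1), against 3.443%, and the gamma-activated core in 2 (Psmb8 and Psmd2), against 8.298%. A match in these windows is a match of letters and shows no binding.

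Array medians before normalisation ran from 458 to 893 intensity units. A limma array weight under 0.5, between 0.124 and 0.394, was given to 4 arrays: aSYN/Hsp70 replicates 3 and 4 and Hsp70 replicates 3 and 6. In them 24.1% to 46.1% of all genes lay more than 0.5 from the wt mean, against 4.32% to 18.2% in the other 20 arrays. The difference between probe sets at the 3′ and 5′ ends of 4 control transcripts averaged 0.846 ± 0.091 in aSYN/Hsp70 brains, 0.972 ± 0.083 in aSYN brains, 0.923 ± 0.184 in Hsp70 brains and 0.851 ± 0.127 in wt brains (SD, n = 6 each). High Xist signal marked 2 aSYN/Hsp70, 4 aSYN, 3 Hsp70 and 4 wt arrays, so the sexes were not balanced. Of the markers that check the tissue label, all 7 of neurons, all 6 of astrocytes and 5 of 6 of oligodendrocytes were among the tested probe sets. The part of arrays, RNA quality, sex and cell mix in the differences below was not tested, beyond the alternatives given.

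No proteasome gene passed the threshold in any of the 6 comparisons made. In aSYN against wt brains, however, the genes leaned the same way: 34 of 40 had a higher mean in aSYN brains, and the median difference was 0.085, or 1.06-fold. Over all 12929 genes 52.2% were higher and the median was 0.0082. By limma 0 of 40 were called, against 0.0037% of probe sets and 0 genes by their brightest probe set. At an unadjusted p under 0.05 stood 5 of 40, all higher (Psmc4, Psmc2, Psmb3, Psmc1 and Psma4), against 4.39% of all genes in either direction and 2.24% higher. The smallest adjusted p was 0.670. Leaving out any array of these groups kept the count of higher genes between 32 and 35 and the median between 0.071 and 0.108. The genes are not replicates of a condition, since all 40 are read from the same arrays.

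The same values of the 40 genes were also read array by array. Each array was given the mean, over the 40 genes, of its distance from the wt mean of that gene. This score averaged 0.0038 ± 0.050 in aSYN/Hsp70 brains, 0.084 ± 0.035 in aSYN brains, -0.00053 ± 0.040 in Hsp70 brains and 0 ± 0.049 in wt brains (SD, n = 6 each). All 6 aSYN arrays lay above the wt mean, 4 of them above the highest wt array at 0.073, so the groups overlapped. Of the aSYN/Hsp70 arrays, 4 of 6 lay below the lowest aSYN array at 0.027. The number of the 40 genes above their wt mean was 19 to 28 in aSYN/Hsp70 arrays, 26 to 35 in aSYN arrays, 15 to 28 in Hsp70 arrays and 14 to 30 in wt arrays. Of all genes, 48.4% to 53.1% lay above in aSYN/Hsp70 arrays and 48.9% to 57.0% in aSYN arrays. In Hsp70 arrays 49.5% to 55.2% did so and in wt arrays 45.6% to 55.2%. Leaving out the 3 immunoproteasome genes gave 0.028 ± 0.025 in aSYN/Hsp70, 0.076 ± 0.034 in aSYN, 0.0047 ± 0.051 in Hsp70 and 0 ± 0.054 in wt brains (SD, n = 6 each).

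**Figure D1:**
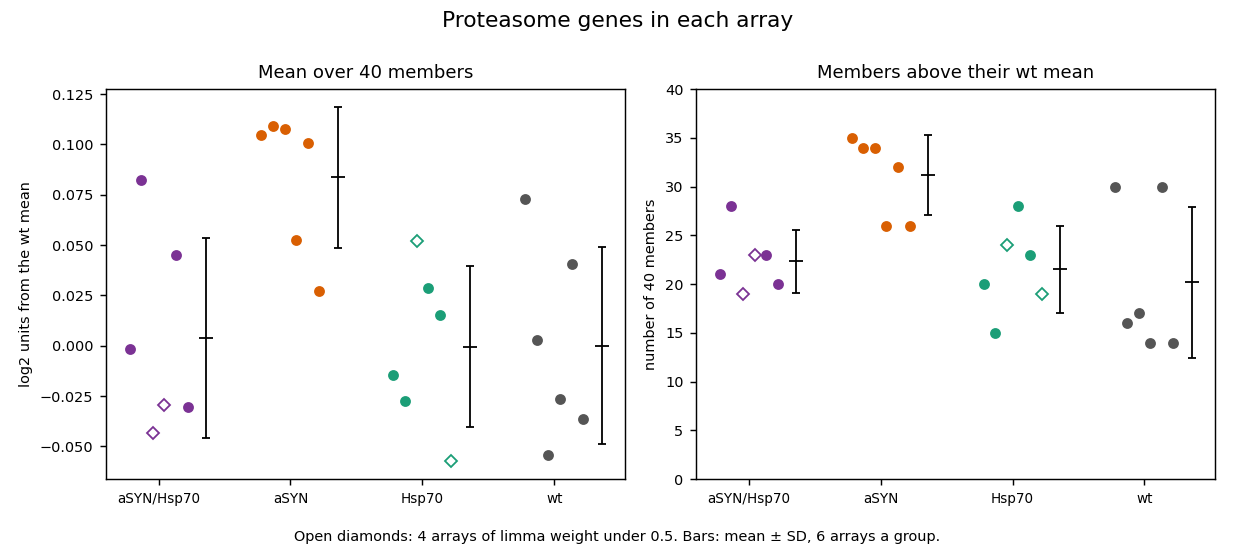
Proteasome genes in each of the 24 arrays, by group. Left, the mean distance of the 40 genes from their wt mean, in log2 units; right, the number of the 40 genes above their wt mean; points are arrays, open diamonds the 4 arrays of low weight, and bars the mean ± SD of 6 arrays. The 6 aSYN arrays all lie above 0 on the left and at 26 or more genes on the right, while the other groups spread around 0.

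The alpha ring forms the gate of the core. All 7 alpha genes were higher in aSYN than in wt brains, by 0.054 (Psma2) to 0.19 (Psma5), with 0 called and a median of 0.11. Psma4 ran between 14.61 and 14.8 (median 14.75) in aSYN brains and between 14.44 and 14.68 (median 14.58) in wt brains. The groups overlapped, at a difference of 0.16 ± 0.076 (SE) and an adjusted p of 0.961. With Hsp70 alone 3 of 7 were higher than in wt (median -0.046), and in aSYN/Hsp70 against aSYN brains 6 of 7 were lower (median -0.073). Psma5 was the alpha gene with the largest difference there. It ran between 14.26 and 14.7 (median 14.41) in aSYN/Hsp70 brains, between 14.56 and 14.96 (median 14.73) in aSYN brains, between 13.75 and 14.65 (median 14.38) in Hsp70 brains and between 14.32 and 14.77 (median 14.55) in wt brains. Its low value in Hsp70 replicate 6, at 13.75, belongs to an array of low weight, and the difference of Hsp70 from wt was -0.23 with all arrays and -0.060 without the 4. Against aSYN, the aSYN/Hsp70 difference of Psma5 was -0.30 ± 0.12 (SE, adjusted p = 0.187), and again the groups overlapped. The other tested probe set of Psma5 went the other way there, at 0.10 ± 0.10 (SE, adjusted p = 0.587). It also did so in Hsp70 against wt brains, at 0.12 ± 0.10 (SE), while in aSYN against wt brains it gave 0.15, on the same side. By their brightest probe sets all 7 alpha genes were higher in aSYN/Hsp70 than in Hsp70 brains, by 0.018 to 0.15, with 0 called. Psma7 was the highest of them at 0.15 ± 0.079 (SE, adjusted p = 0.567). Other tested probe sets did not all go the same way in that comparison. Those of Psma1, Psma3 and Psma6 lay below 0, at -0.61, -1.61 and -0.10. Those of Psma5 and Psma7 and another of Psma6 lay above 0, at 0.13, 0.030 and 0.28.

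The constitutive beta genes were higher in aSYN than in wt brains in 6 of 7 cases, with a median of 0.12. Psmb3, a structural beta subunit, had the largest difference. It ran between 14.34 and 14.71 (median 14.56) in aSYN brains and between 14.18 and 14.47 (median 14.27) in wt brains, so that all 6 aSYN arrays lay above 5 of 6 wt arrays. The difference was 0.23 ± 0.10 (SE, adjusted p = 0.891), while the other probe set of Psmb3 gave 0.10 ± 0.082 (SE). Psmb1, another beta subunit without a cutting site, differed by 0.13 from wt in aSYN brains and by -0.21 ± 0.086 (SE, adjusted p = 0.190) between aSYN/Hsp70 and aSYN brains. Psmb4 differed by 0.0041 between aSYN and wt brains and by -0.088 between aSYN/Hsp70 and aSYN brains.

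Of the constitutive catalytic genes, Psmb5 stands for chymotrypsin-like, Psmb7 for trypsin-like and Psmb6 for caspase-like cutting. Psmb5 ran between 14.82 and 15.29 (median 15.01) in aSYN/Hsp70 brains, between 14.64 and 14.89 (median 14.78) in aSYN brains, between 14.6 and 15.05 (median 14.93) in Hsp70 brains and between 14.71 and 14.89 (median 14.83) in wt brains. Of each 6, 4 aSYN/Hsp70 arrays and 3 Hsp70 arrays lay above all aSYN and wt arrays, among them all 4 arrays of low weight. Psmb5 differed by 0.26 ± 0.096 (SE, adjusted p = 0.166) between aSYN/Hsp70 and aSYN, by 0.23 (adjusted p = 0.316) between aSYN/Hsp70 and wt, and by -0.026 between aSYN and wt brains. Without the 4 arrays the first of these was 0.14 and the second 0.12. Psmb6 ran between 14.2 and 14.55 in aSYN/Hsp70, 14.24 and 14.54 in aSYN, 14.24 and 14.64 in Hsp70 and 14.17 and 14.44 in wt brains. Psmb7 ran between 15.68 and 15.8 in aSYN/Hsp70, 15.71 and 15.88 in aSYN, 15.65 and 15.95 in Hsp70 and 15.54 and 15.78 in wt brains. All 4 groups overlapped for both. Their differences from wt in aSYN brains were 0.10 ± 0.077 for Psmb6 and 0.12 ± 0.063 for Psmb7 (SE, adjusted p = 1.00 and 0.980).

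Psmb2, a structural beta subunit, was the member with the largest positive difference between aSYN/Hsp70 and wt brains. It ran between 13.56 and 14.08 (median 13.66) in aSYN/Hsp70 brains, between 13.28 and 13.83 (median 13.49) in aSYN brains, between 13.31 and 14.05 (median 13.51) in Hsp70 brains and between 13 and 13.56 (median 13.41) in wt brains. The lowest aSYN/Hsp70 array just cleared the highest wt array, and only this gene of the 40 was wholly separated and higher in that comparison, as were 0.379% of all genes. The difference was 0.37 ± 0.13 (SE, adjusted p = 0.278). Psmb2 was 0.20 ± 0.13 above aSYN brains (SE, adjusted p = 0.380) and 0.15 ± 0.13 above Hsp70 brains (SE, adjusted p = 0.735). Without the 4 arrays of low weight Psmb2 was 0.131 above aSYN brains and 0.233 above Hsp70 brains. Leaving out 1 array gave 0.131 to 0.262 against aSYN brains, the lowest without aSYN/Hsp70 replicate 4. Against Hsp70 brains it gave 0.0751 to 0.239, the lowest without aSYN/Hsp70 replicate 4 and the highest without Hsp70 replicate 3.

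The immunoproteasome genes Psmb8 and Psmb9 were the members of widest spread and lay nearest the filter on dim signals, with means of 9.19 and 9.33 where the filter ended at 8.13. Psmb9 was tight in aSYN brains and scattered elsewhere. It ran between 8.281 and 9.811 (median 8.832) in aSYN/Hsp70 brains, between 9.468 and 9.883 (median 9.635) in aSYN brains, between 8.712 and 10.15 (median 9.45) in Hsp70 brains and between 8.517 and 9.637 (median 9.31) in wt brains. Psmb9 was 0.47 ± 0.25 higher in aSYN than in wt brains (SE, adjusted p = 0.999) and -0.70 ± 0.25 in aSYN/Hsp70 against aSYN brains (SE, adjusted p = 0.153). Its interaction, the aSYN difference with Hsp70 minus that without, was -0.93 ± 0.36 (SE, adjusted p = 0.508), the largest in size of the 40. Without the 4 arrays of low weight these were 0.47, -0.45 and -0.51, none called, and the difference of aSYN/Hsp70 from wt was -0.23 with all arrays and 0.020 without the 4.

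Psmb8 had its lowest values in the arrays of low weight. It ran between 7.277 and 9.506 (median 9.006) in aSYN/Hsp70 brains, between 8.784 and 10.4 (median 9.405) in aSYN brains, between 7.799 and 9.858 (median 9.153) in Hsp70 brains and between 8.521 and 10.06 (median 9.715) in wt brains. Its 4 lowest values, 7.277, 7.799, 8.237 and 8.382, were those of the 4 arrays of low weight. The difference was -0.81 ± 0.39 between aSYN/Hsp70 and wt (SE, adjusted p = 0.342) and -0.72 ± 0.39 between aSYN/Hsp70 and aSYN brains (SE, adjusted p = 0.306). Without the 4 arrays they were -0.32 and -0.22. Psmb10 ran between 12.9 and 13.31 in aSYN/Hsp70, 12.96 and 13.28 in aSYN, 12.9 and 13.19 in Hsp70 and 12.75 and 13.13 in wt brains. Its groups overlapped, at 0.17 ± 0.090 between aSYN/Hsp70 and wt (SE, adjusted p = 0.377) and 0.16 ± 0.090 between aSYN and wt (SE, adjusted p = 1.00).

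**Figure D2:**
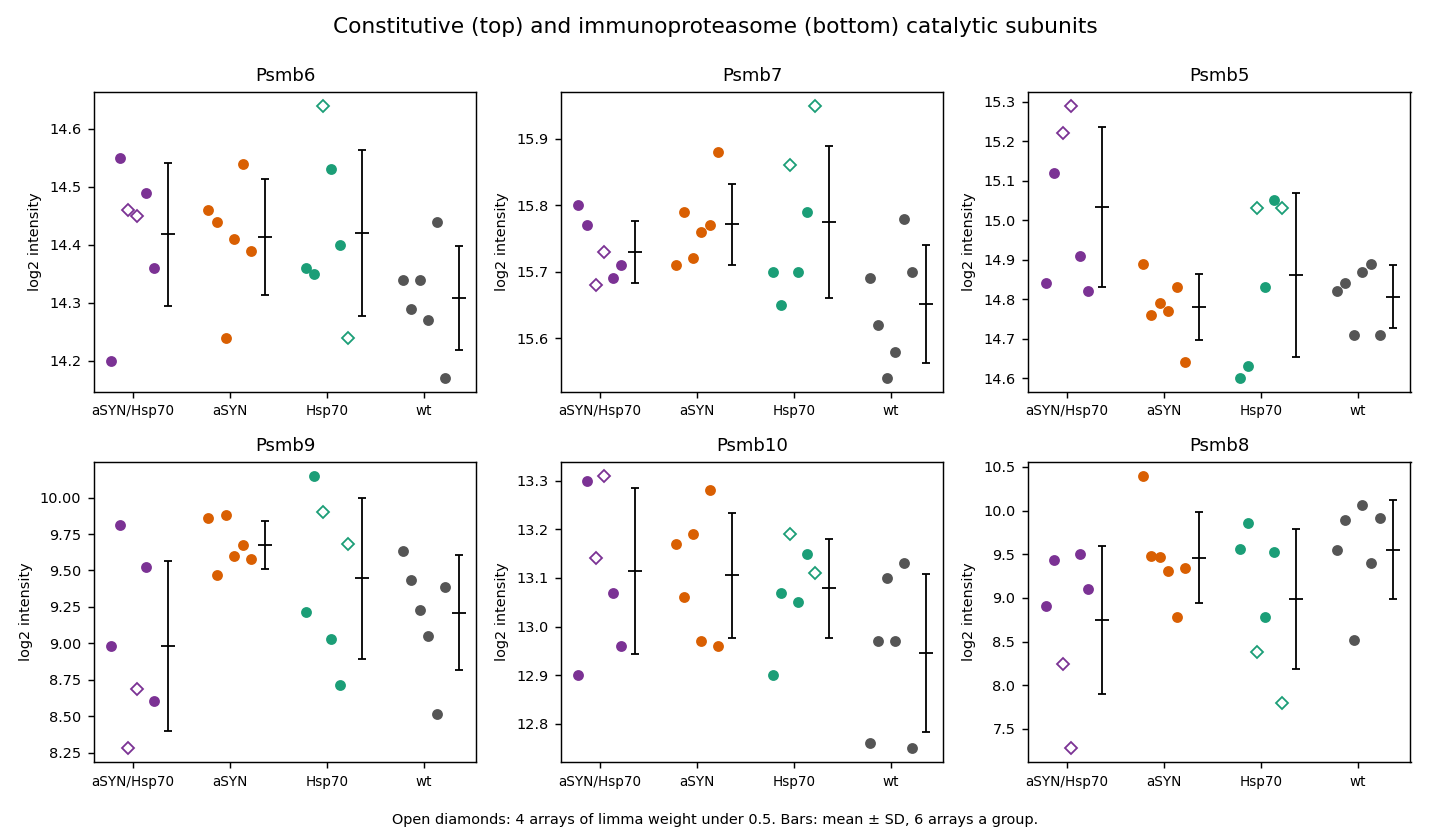
Log2 intensity of the constitutive catalytic genes Psmb6, Psmb7 and Psmb5 (top) and of the immunoproteasome genes Psmb9, Psmb10 and Psmb8 (bottom) in each array, by group. Points are arrays, open diamonds the 4 arrays of low weight, and bars the mean ± SD of 6 arrays; each panel has its own vertical scale. Psmb8 is lowest in the 4 arrays of low weight, and Psmb9 spans 9.468 to 9.883 in aSYN brains, against 8.517 to 9.637 in wt brains.

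The ATPases of the regulatory particle had the median farthest from 0 among the subcomplexes with more than 3 genes in 3 of the 6 comparisons. In aSYN against wt brains 5 of 6 were higher (median 0.13), and 3 of the 5 members at an unadjusted p under 0.05 were ATPases. In aSYN/Hsp70 against aSYN brains 5 of 6 were lower (median -0.15), and in the interaction 5 of 6 were below 0 (median -0.15), with 0 called in any of the 3. These comparisons share the aSYN arrays, so a high aSYN value enters each. Psmc4 ran between 13.46 and 13.69 (median 13.62) in aSYN/Hsp70 brains, between 13.58 and 13.77 (median 13.7) in aSYN brains, between 13.5 and 13.87 (median 13.63) in Hsp70 brains and between 13.29 and 13.65 (median 13.45) in wt brains. Only 2 of 6 wt arrays reached into the aSYN range. The difference of aSYN from wt was 0.21 ± 0.074 (SE, adjusted p = 0.670). Its adjusted p was between 0.0572, with array weights, and 1 over 22 alternative fits. The second probe set of Psmc4 gave 0.040 ± 0.29 (SE) in this comparison.

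Psmc2 came closest to a call of all members, and is singled out for that after its values were seen. It ran between 14.46 and 14.83 (median 14.69) in aSYN/Hsp70 brains, between 14.82 and 15.07 (median 14.91) in aSYN brains, between 14.68 and 14.85 (median 14.72) in Hsp70 brains and between 14.66 and 14.83 (median 14.73) in wt brains. Psmc2 values in aSYN/Hsp70 and aSYN brains met only at 14.82 and 14.83. The difference of aSYN/Hsp70 from aSYN was -0.26 ± 0.072 (SE, adjusted p = 0.0808). The lowest 2 values, 14.49 and 14.46, came from replicates 3 and 4, and without the 4 arrays of low weight the difference was -0.17 (adjusted p = 0.249). Of 22 alternative fits 1 called it, the fit with trended and robust variance (adjusted p = 0.0383), and the others gave adjusted p-values up to 0.249. Psmc2 was 0.20 ± 0.072 higher in aSYN than in wt brains (SE, adjusted p = 0.719), and its interaction was -0.28 ± 0.10 (SE, adjusted p = 0.477). The other probe sets of Psmc2 lay on the same side with smaller differences. For aSYN/Hsp70 against aSYN they gave -0.17 ± 0.070 (SE, adjusted p = 0.192) and -0.016 ± 0.28 (SE, adjusted p = 0.980). For aSYN against wt they gave 0.11 and 0.093, and for the interaction -0.20 and -0.045.

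Psmc5 stood against the other ATPases. It ran between 14.8 and 15.26 (median 14.89) in aSYN brains and between 15.08 and 15.24 (median 15.11) in wt brains. Of the 6 aSYN arrays 4 lay below every wt array and 1 lay above, at a difference of -0.16 ± 0.083 (SE, adjusted p = 0.975). Psmc1, Psmc3 and Psmc6 were 0.13, 0.13 and 0.028 higher in aSYN than in wt brains, and -0.16, -0.14 and -0.15 in aSYN/Hsp70 against aSYN brains.

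The other subunits of the base and lid bind, edit and release ubiquitinated substrates. Of the 11 genes 9 were higher in aSYN than in wt brains (median 0.059) and 7 were higher in aSYN/Hsp70 than in aSYN brains (median 0.041), with 0 called. Psmd7, a lid subunit that pairs with the deubiquitinase Psmd14, had the widest spread of them. It ran between 12.4 and 13.6 (median 13.45) in aSYN/Hsp70 brains, between 13.63 and 14 (median 13.75) in aSYN brains, between 12.87 and 13.75 (median 13.54) in Hsp70 brains and between 13.54 and 13.93 (median 13.59) in wt brains. Every aSYN/Hsp70 array lay below every aSYN array. Psmd7 was the only member separated in this way and lower in that comparison, as were 0.982% of all genes. The 4 lowest values of Psmd7, 12.4, 12.44, 12.87 and 12.98, were again those of the 4 arrays of low weight. The difference of aSYN/Hsp70 from aSYN was -0.63 ± 0.20 (SE, adjusted p = 0.110) with all arrays and -0.26 (adjusted p = 0.189) without the 4. Over 22 alternative fits its adjusted p was between 0.0545 and 0.255.

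Psmd13, a lid subunit, went the other way in the same arrays. It ran between 13.18 and 13.8 (median 13.27) in aSYN/Hsp70 brains, between 13.05 and 13.3 (median 13.18) in aSYN brains and between 12.98 and 13.28 (median 13.12) in wt brains. The highest values, 13.8 and 13.49, were those of aSYN/Hsp70 replicates 4 and 3. The difference from wt was 0.25 ± 0.090 (SE, adjusted p = 0.281), and 0.12 without the 4 arrays. Psmd11, which bridges the lid and the core, ran between 15.13 and 15.42 (median 15.19) in aSYN brains and between 15.3 and 15.51 (median 15.41) in wt brains. Only 1 of 6 aSYN arrays of Psmd11 reached the wt range, at a difference of -0.18 ± 0.10 (SE, adjusted p = 0.995). The other probe sets of Psmd11 were on the other side of 0 in this comparison, at 0.11, 0.17, 0.0036 and 0.52. Of the 40 genes, 10 lay below the mean of the other arrays of their group in all 4 arrays of low weight, Psmb8, Psmd7 and Psmc2 among them, and 9 lay above in all 4, Psmb5, Psmb2 and Psmd13 among them. The share of all genes that did so was not computed, so these counts are not read as particular to the members.

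Psmd2, the large base scaffold that receives ubiquitin-like shuttle proteins, hardly varied. All 24 values lay between 14.8 and 14.96. Its SD within groups was 0.0323, the smallest of all 12929 genes, whose median was 0.252. Without quantile normalisation it was 0.0482 and again the smallest. The members as a set varied less than the average gene, with a median SD of 0.120. Their probe sets gave high signals, with a median mean of 14.38 against 11.53 for all genes. Among genes with a mean of at least 13 the medians were 0.119 for 34 members and 0.145 for 2936 genes. The largest SDs were those of Psmb8 at 0.700, Psmb9 at 0.455 and Psmd7 at 0.354. Psmd2 differed by -0.063 ± 0.047 between aSYN and wt brains (SE, adjusted p = 1.00).

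**Figure D3:**
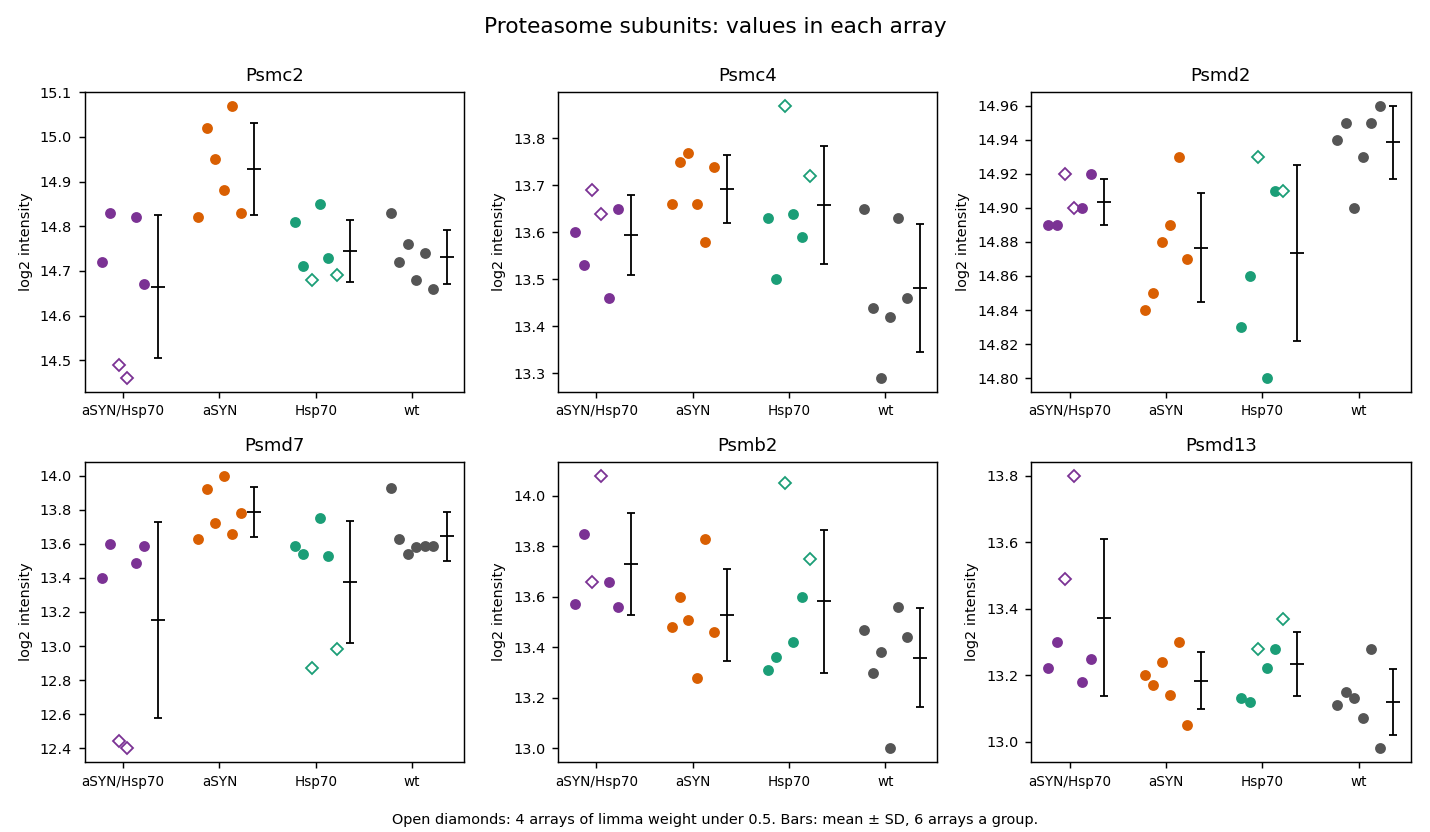
Log2 intensity of Psmc2, Psmc4, Psmd2, Psmd7, Psmb2 and Psmd13 in each array, by group. Points are arrays, open diamonds the 4 arrays of low weight, and bars the mean ± SD of 6 arrays; each panel has its own vertical scale, and that of Psmd2 spans only 14.8 to 14.96. Psmd7 reaches 12.4 in aSYN/Hsp70 brains, with open diamonds far below the other arrays, and Psmd13 reaches 13.8 in the same arrays.

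Psmd5, Psmd9 and Psmd10 escort the ATPases during assembly and leave the finished particle. In aSYN against wt brains they differed by -0.043, 0.085 and 0.13, and in aSYN/Hsp70 against aSYN brains by 0.11, 0.050 and -0.082, with 0 called. Psmd10, also known as gankyrin, ran between 12.04 and 12.44 in aSYN brains and between 11.75 and 12.23 in wt brains, so the groups overlapped.

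The activators open the core gate without ATP. Psme1, which forms an interferon-inducible ring with Psme2, ran between 13.13 and 13.3 (median 13.24) in aSYN/Hsp70 brains, between 12.94 and 13.41 (median 13.18) in aSYN brains, between 12.96 and 13.28 (median 13.07) in Hsp70 brains and between 12.98 and 13.25 (median 13.05) in wt brains. The groups overlapped, at 0.14 ± 0.079 between aSYN/Hsp70 and wt (SE, adjusted p = 0.389) and 0.096 ± 0.079 between aSYN and wt (SE, adjusted p = 1.00). Psme3, the nuclear activator, ran between 12.52 and 12.84 (median 12.61) in aSYN/Hsp70 brains, between 12.7 and 12.9 (median 12.82) in aSYN brains, between 12.44 and 12.86 (median 12.71) in Hsp70 brains and between 12.63 and 12.97 (median 12.78) in wt brains. Its difference of aSYN/Hsp70 from aSYN was -0.16 ± 0.079 (SE, adjusted p = 0.259). Psme4, also called PA200, ran between 11.81 and 12.19 in aSYN/Hsp70, 11.8 and 12.43 in aSYN, 11.8 and 12.25 in Hsp70 and 11.9 and 12.23 in wt brains, and its groups overlapped throughout.

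**Figure D4:**
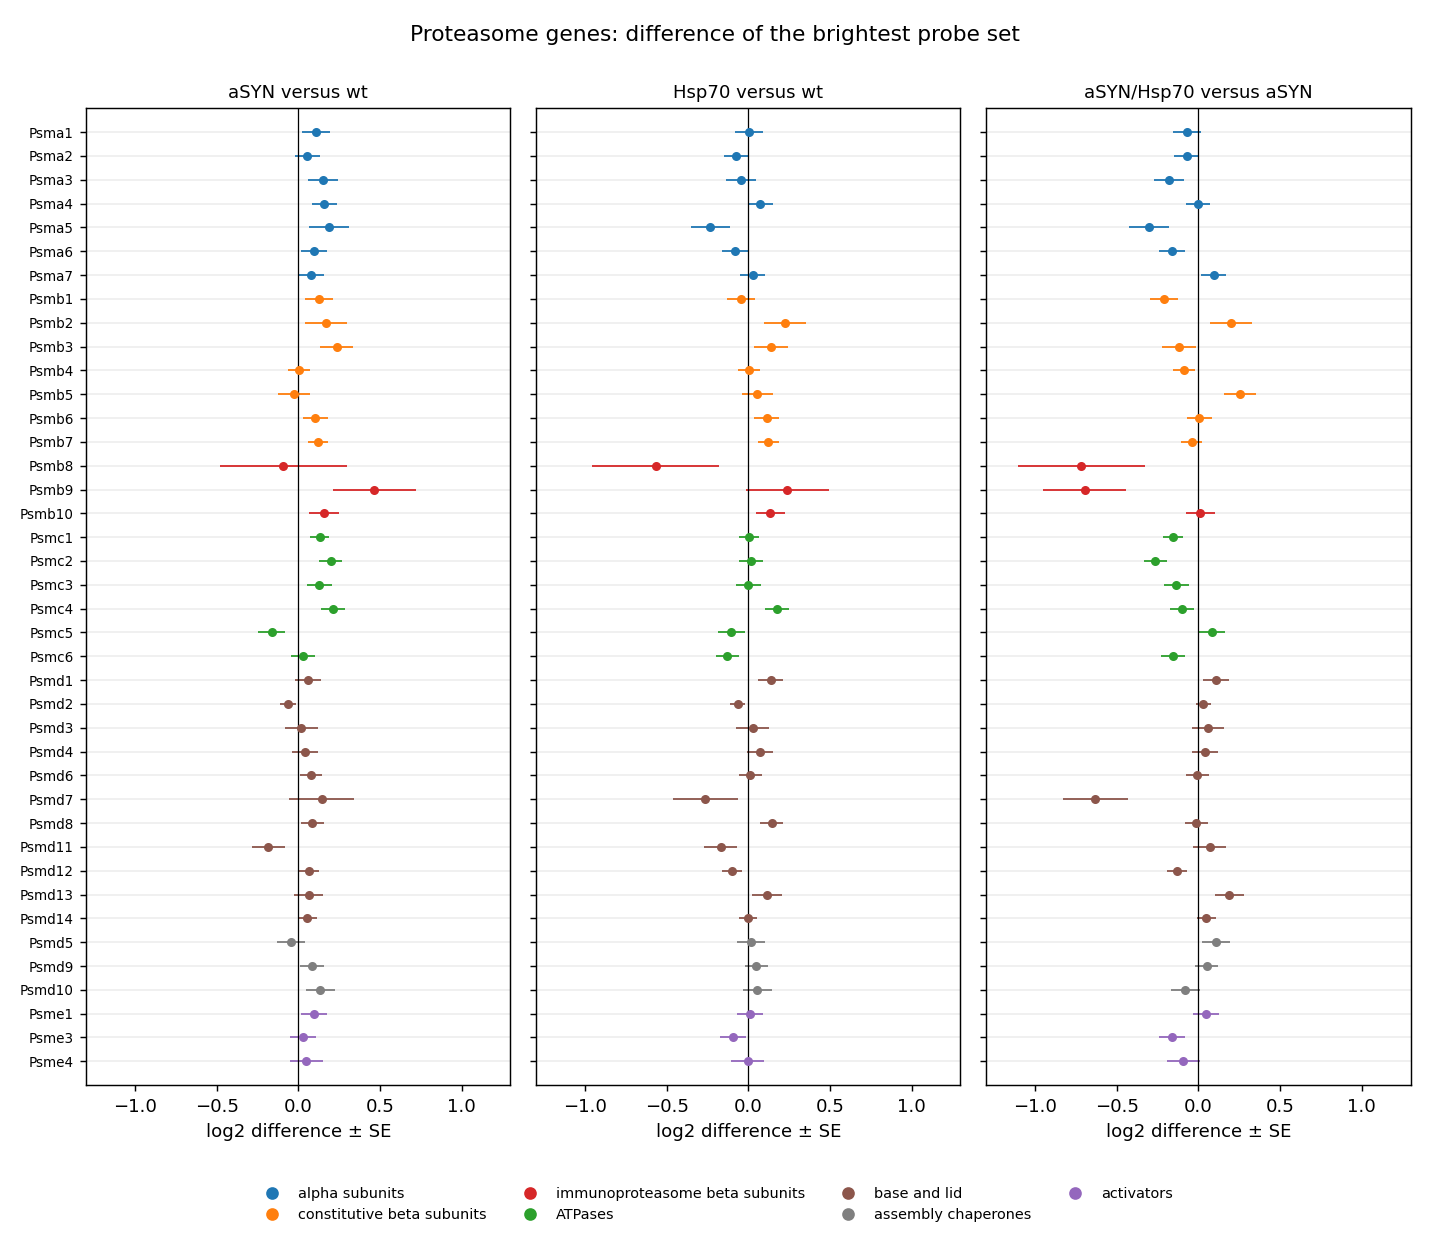
Log2 differences of the 40 proteasome genes in 3 comparisons, aSYN versus wt, Hsp70 versus wt and aSYN/Hsp70 versus aSYN, from the brightest probe set of each gene. Points are the differences, bars their SE, and colours the subcomplexes; the horizontal axis is the log2 difference. In aSYN versus wt 34 of 40 points lie above 0, in Hsp70 versus wt 24 and in aSYN/Hsp70 versus aSYN 16, and 0 passed the threshold.

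In Hsp70 brains the list lay near the wt level. In Hsp70 against wt brains 24 of 40 genes were higher and the median was 0.012, against 51.2% and 0.0056 over all genes. By limma 0 of 40 were called (0% of probe sets), and 1 of 40, Psmc4, was at an unadjusted p under 0.05, against 4.73% of genes in either direction and 2.77% higher. Without the 4 arrays of low weight 17 of 40 were higher and the median was -0.010. Constitutive beta genes were higher in 6 of 7 cases, with a median of 0.11, and alpha genes in 3 of 7. Psmc4 was 0.18 ± 0.074 higher (SE, adjusted p = 0.881), and 0.11 without the 4 arrays.

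In aSYN/Hsp70 against wt brains 21 of 40 genes were higher and the median was 0.045, against 48.7% and -0.0074 over all genes. By limma 0 of 40 were called (0% of probe sets). At an unadjusted p under 0.05 stood 7 of 40, 5 higher and 2 lower, against 14.6% of all genes, of which 7.03% higher and 7.54% lower. Against aSYN brains 24 of 40 were lower in aSYN/Hsp70 brains and the median was -0.056, where 47.8% of all genes were higher and their median was -0.014. By limma 0 of 40 were called, against 0.718% of probe sets and 0.333% of genes by their brightest probe set. At an unadjusted p under 0.05 stood 10 of 40, 8 lower and 2 higher, against 18.1% of genes (9.81% lower and 8.31% higher). Without the 4 arrays of low weight 5 of 40 did so. The share of all genes in that fit is not given here, so the fall is not read as particular to the members.

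In aSYN/Hsp70 against Hsp70 brains 24 of 40 were higher and the median was 0.022, against 47.8% and -0.0093 over all genes. By limma 0 of 40 were called (0% of probe sets), and 0 were at an unadjusted p under 0.05, against 8.33% of genes. For the interaction 28 of 40 were below 0 and the median was -0.073, where 46.1% of all genes were above 0 and their median was -0.023. By limma 0 of 40 were called (0% of probe sets). The 3 at an unadjusted p under 0.05, against 6.26% of genes and 3.43% below 0, were Psmb9, Psmc2 and Psmc4, all below 0. The interaction of Psmc4 was -0.28 ± 0.10 (SE, adjusted p = 0.503), while its second probe set gave 0.13 ± 0.40 (SE, adjusted p = 0.958).

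Several members had more than 1 tested probe set, and these did not always give like values. Of the 40 genes, 19 had several, 48 probe sets in all, and 21 had 1. Between aSYN/Hsp70 and aSYN brains the probe sets of 8 members lay more than 0.5 apart, and between aSYN and wt brains those of 1, Psmd11. In aSYN/Hsp70 against aSYN brains the second probe set of Psmd6, a lid subunit, gave -0.63 ± 0.19 (SE, adjusted p = 0.0977), where its brightest gave -0.0071. That of Psmb4 gave -0.87 ± 0.30 (SE, adjusted p = 0.134), against -0.088 for its brightest. The dim second probe set of Psma3 gave -1.25 ± 0.43 (SE, adjusted p = 0.137), against -0.18. For Psmd7 both were below 0, the dim one at -1.21 ± 0.48 (SE, adjusted p = 0.179). Psma6 had probe sets at -0.16, -0.18 and 0.39, and Psmd11 had 5 that ran between -0.28 and 0.28. Probe sets of Psma1 (-0.070 and -0.63) and Psmc6 (-0.15, -0.50 and 0.068) also parted. In Hsp70 against wt brains a dim probe set of Psmb1 gave -0.89, against -0.046 for its brightest, and the second of Psmc4 gave -0.59, against 0.18. The probe sets of 5 members in aSYN/Hsp70 against Hsp70 brains lay more than 0.5 apart, the widest those of Psma3, whose dim one gave -1.61 ± 0.43 (SE, adjusted p = 0.257), against 0.020 for its brightest. A dim probe set of Psmd4 gave -0.65 there, against 0.011. Those of 6 members did so in aSYN/Hsp70 against wt brains, Psma3 at -1.47 ± 0.43 (SE, adjusted p = 0.230) against -0.025, and in the interaction those of 7, Psma3 at -1.40 ± 0.61 (SE, adjusted p = 0.573) against -0.13. The platform annotation used here does not say which transcripts or gene parts these probe sets read.

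**Figure D5:**
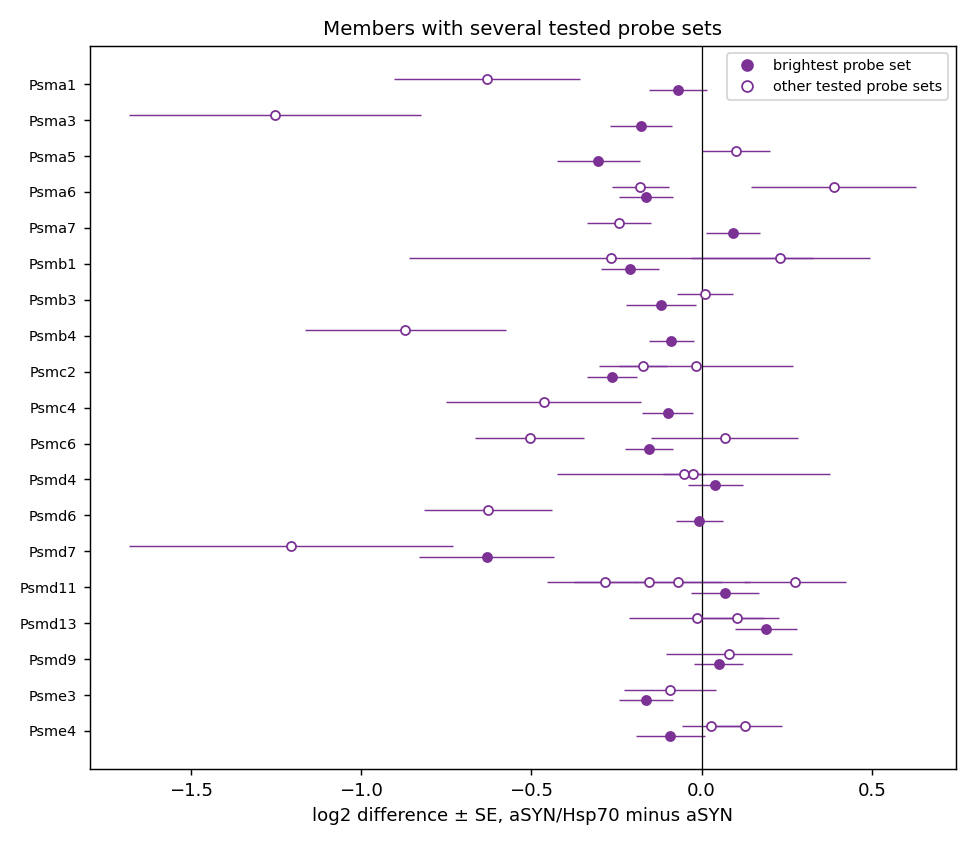
Log2 difference of aSYN/Hsp70 minus aSYN for each tested probe set of the 19 members with several. Filled points are the brightest probe set of a gene, open points the others, and bars the SE. The other probe sets of Psma1, Psma3, Psmb4, Psmd6 and Psmd7 lie between -1.25 and -0.63, while the brightest of these genes lie at or above -0.63.

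Genes that assemble, regulate or feed the proteasome were read beside the subunits. Of 32 listed, 23 had a tested probe set, and 0 were called in either direction in any comparison. In aSYN against wt brains 15 of 23 were higher (median 0.045). Nfe2l1, the transcription factor named above, ran between 13.53 and 13.7 (median 13.62) in aSYN brains and between 13.71 and 13.94 (median 13.78) in wt brains, at -0.19 ± 0.078 (SE, adjusted p = 0.822). Every aSYN array of Nfe2l1 lay below every wt array, as for 0.425% of all genes, with the nearest arrays at 13.7 and 13.71. Whether the RNA level of Nfe2l1 bears on the subunit genes was not tested. Ubqln4, a shuttle that carries ubiquitinated proteins, was the other at an unadjusted p under 0.05, at -0.20 ± 0.089 (SE, adjusted p = 0.889).

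In aSYN/Hsp70 against aSYN brains 13 of 23 were lower (median -0.084), and 10 stood at an unadjusted p under 0.05, as did 18.1% of all genes. Psmg2, an alpha-ring chaperone, ran between 10.8 and 11.61 (median 11.31) in aSYN/Hsp70 brains and between 11.6 and 12.05 (median 11.72) in aSYN brains, at -0.48 ± 0.13 (SE, adjusted p = 0.0712). Uchl5, a deubiquitinase of the regulatory particle, ran between 13.02 and 13.34 in aSYN/Hsp70 brains and between 13.38 and 13.64 in aSYN brains, at -0.27 ± 0.072 (SE, adjusted p = 0.0749). The groups did not overlap for Uchl5, as for 0.982% of all genes in that direction, and met at 1 end for Psmg2. Usp14, the other such deubiquitinase, was at -0.47 ± 0.21 (SE, adjusted p = 0.215). Nploc4, a cofactor of the unfoldase Vcp, was at 0.34 ± 0.11 (SE, adjusted p = 0.115), and Nfe2l1 at 0.18 ± 0.078 (SE, adjusted p = 0.211). Vcp itself was at -0.29 ± 0.075 between aSYN/Hsp70 and wt brains (SE, adjusted p = 0.210). The core assembly factor Pomp was at -0.15 ± 0.062 between aSYN/Hsp70 and aSYN brains (SE, adjusted p = 0.205).

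Genes of interferon-induced antigen processing, which share regulation with the immunoproteasome, were measured for 12 of 15, with 0 called. In aSYN against wt brains 6 were higher and 6 lower, and in aSYN/Hsp70 against aSYN brains 9 of 12 were lower (median -0.089). B2m, the light chain of class I molecules, ran between 13.5 and 14.66 (median 13.58) in aSYN/Hsp70 brains and between 14.1 and 14.87 (median 14.51) in aSYN brains. The groups overlapped, at -0.67 ± 0.21 (SE, adjusted p = 0.104). Tap1, which loads peptides into the endoplasmic reticulum and neighbours Psmb9 in the genome, was at -0.79 ± 0.35 between Hsp70 and wt brains (SE, adjusted p = 0.881). Its mean of 8.17 lay close to 8.13, where the filter on dim signals ended.

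Markers of other cell types were set beside these groups. The 10 microglial markers, all measured, had a score of -0.15 ± 0.10 in aSYN/Hsp70, 0.0048 ± 0.12 in aSYN, -0.041 ± 0.13 in Hsp70 and 0 ± 0.10 in wt brains (SD, n = 6 each), with 8 of 10 lower in aSYN/Hsp70 than in aSYN brains and 0 called. The range was -0.33 to -0.071 in aSYN/Hsp70 and -0.14 to 0.21 in aSYN brains. In aSYN against wt brains 7 of these 10 were higher and 3 lower (median 0.14), with 0 called. The microglial marker Fcrls averaged 10.42 in aSYN/Hsp70, 10.45 in aSYN, 11.24 in Hsp70 and 11.37 in wt brains, which pulls down the aSYN/Hsp70 and aSYN scores. Oligodendrocyte markers scored -0.32 ± 0.33 in aSYN/Hsp70, -0.096 ± 0.086 in aSYN, -0.098 ± 0.083 in Hsp70 and 0 ± 0.059 in wt brains, and 5 of 5 were lower in aSYN/Hsp70 than in aSYN brains. The oligodendrocyte marker Mog averaged 11.5 in aSYN/Hsp70, 12.21 in aSYN, 12.1 in Hsp70 and 12.2 in wt brains. Its lowest aSYN/Hsp70 array was at 9.369 and its median there at 11.93, which pulls down the aSYN/Hsp70 score. Endothelial markers scored 0.15 ± 0.20 in aSYN/Hsp70, -0.20 ± 0.13 in aSYN, 0.14 ± 0.13 in Hsp70 and 0 ± 0.11 in wt brains. Of these 5 markers 4 were lower in aSYN than in wt brains, with 0 called, and Cldn5 was called between aSYN/Hsp70 and aSYN brains, at 0.71 (adjusted p = 0.0460). Astrocyte markers scored 0.038 ± 0.12 in aSYN/Hsp70, -0.044 ± 0.086 in aSYN, -0.088 ± 0.13 in Hsp70 and 0 ± 0.10 in wt brains. The astrocyte glutamate transporter Slc1a3 was at -0.26 ± 0.078 between aSYN and wt brains (SE, adjusted p = 0.452) and at 0.33 ± 0.078 between aSYN/Hsp70 and aSYN brains (SE, adjusted p = 0.0512), and 6 of 6 astrocyte markers were above 0 in the interaction, with 0 called. Neuronal markers scored -0.063 ± 0.092 in aSYN/Hsp70, -0.022 ± 0.15 in aSYN, -0.039 ± 0.072 in Hsp70 and 0 ± 0.15 in wt brains. The part of the cell mix in the proteasome values was not tested.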

How the data were processed

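The deposited values were linear intensities, 1 per probe set and array, from 24 Affymetrix mouse arrays, while the probe summary method was not stated in the sources used here. In the deposited intensity table each array's mean, without the lowest and highest 2%, was 2500. Genes were named from the platform annotation where a probe set had 1 symbol (34958 probe sets; 932 had several), and all 86 member probe sets matched the GRCm38.p6 gene table by ID.

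Intensities were turned into log2(intensity + 16) and quantile normalised. The 64 control probe sets and the 18015 with the lowest means (40%) were left out, which left 27022. One fit with a mean per group was made over all arrays with limma 3.58.1 in R 4.3.3 (lmFit, eBayes), and each comparison was a contrast in it. The added 16 understates differences of dim probe sets, and the number of arrays limits the precision.

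Members were described by counts and medians beside all genes. Always named were Psmb5 to Psmb10 and the activators. Also named were the 3 largest differences each way in a comparison, members whose probe sets differed by over 0.5, members not measured, and related genes with the smallest p. Other members were named to account for their subcomplex. The members, lists and naming rule were chosen with earlier results of these data known. Alternatives changed the normalisation, added constant, filter, array weights, variance model, sex covariate, replicate block and arrays included.

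The fit was tested on simulated arrays of the 27022 probe sets for aSYN/Hsp70 against aSYN: of 100 changed by 0.5 it called 25%, and of 100 changed by 1 it called 66%. The changed probe sets were picked at random, and the noise was independent and normal with the same SD in every group. Arrays in which many genes move together were not simulated. The rates are not those of the members, whose median SD was 0.120 against 0.252 for all genes.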

Additional observations from a re-analysis of the deposited data

Results flagged for a closer look

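Of 164 tests of the highest or lowest array within a group of 6, 9 set an array apart, where chance does so in about 1 group in 20. No explanation was weighed.

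In aSYN/Hsp70 brains, replicate 4 was low for Psma6 (14.64, the others between 14.95 and 15.14) and high for Psmd3 (13.86, the others between 13.21 and 13.42). That array had the lowest weight of all. In aSYN brains, replicate 5 was high for Psma7 (14.18, the others between 13.9 and 14) and for Psmd10 (12.44, the others between 12.04 and 12.11). Replicate 6 of the same group was low for Psmd4 (14.3, the others between 14.47 and 14.57) and for Psmd5 (12.74, the others between 12.98 and 13.05). In wt brains, replicate 1 was high for Psmb1 (14.72, the others between 14.33 and 14.45) and for Psmd7 (13.93, the others between 13.54 and 13.63). Replicate 4 of the same group was low for Psma1 (13.74, the others between 13.98 and 14.1).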

How the results depend on the processing

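The count of members called stayed at 0 in every comparison and alternative run but 1: with trended and robust variance 1 member, Psmc2, was called between aSYN/Hsp70 and aSYN brains. The median difference of aSYN from wt brains was 0.071 to 0.108 on leaving out an array and 0.081 to 0.098 under the other alternatives. On leaving out an array the other medians were -0.062 to -0.030 for aSYN/Hsp70 versus aSYN, 0.013 to 0.062 for aSYN/Hsp70 versus wt, -0.00083 to 0.036 for Hsp70 versus wt, -0.0014 to 0.040 for aSYN/Hsp70 versus Hsp70 and -0.085 to -0.050 for the interaction. Of 858 values of 36 named differences, 853 kept their direction and 5 did not. Psmb8 in aSYN versus wt was between -0.298 and 0.0436 on leaving out an array, above 0 without aSYN replicate 5 and, at 0.0101, without wt replicate 4. Psmb8 in aSYN/Hsp70 versus Hsp70 was between -0.477 and 0.0535, the last without aSYN/Hsp70 replicate 4. Psmb9 in aSYN/Hsp70 versus wt was 0.0342 without quantile normalisation and 0.0203 without the 4 arrays of low weight. The cause was not tested.

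The calls over all probe sets moved more. Between aSYN/Hsp70 and aSYN brains there were 194, and 369 with trended and robust variance, 324 with array weights, 223 with a larger added constant, 100 without the 4 arrays, 89 with the sex covariate, 43 without the filter and 7 with only the arrays of these groups. On leaving out an array there were 49 to 814, the highest without aSYN/Hsp70 replicate 6 and the lowest without aSYN replicate 2 or 3. Between aSYN and wt brains there was 1, and 217 with array weights and 35 without the 4 arrays. The interaction had 0, and 81 with array weights, 24 with trended and robust variance and 0 to 30 on leaving out an array, the highest without aSYN/Hsp70 replicate 6.

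Samples that shared a replicate number did not deviate together: over 36 pairs the correlation of deviations ran between -0.148 and 0.193, and 3 were over 0.1. With the replicate block 0 members were called in all 6 comparisons, the median of aSYN versus wt was 0.0851, and 70 probe sets in all were called between aSYN/Hsp70 and aSYN brains, against 194.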
